A study of Mus musculus with 18 samples.

Results

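The genes described here are 46 genes of cardiac macrophages and other myeloid cells, out of 18193 genes with a named probe set on the arrays. They were taken by gene symbol as known myeloid genes, with earlier results of these data in view, and each was read from its probe set with the highest mean over all 18 arrays. All 46 had a probe set. Of these, 42 passed a filter on low signal and were tested, and Timd4, Trem2, Hcls1 and Aif1 did not. RNA came from the ventricular myocardium of 18 mice, 1 array per heart. Wild type C57Bl/6J mice (n = 4) were labelled as 6 months old, and the series' design text gives 6 to 8 months. All other mice were leptin-deficient ob/ob animals on the C57Bl/6J background, aged to 6 months and then followed for 1 month: fed ad libitum (n = 4), given recombinant mouse leptin from an osmotic mini-pump (n = 5), or calorie restricted (n = 5) to the intake of the leptin group. The ob/ob mutation removes functional leptin from every tissue, so the calorie restricted and the ad libitum mice had none, while wild type mice had their own. All values are MAS5 signal intensities, a linear brightness per probe set that carries a common scaling per array. Leptin and calorie restricted mice had equal food intake, so their comparison asks what leptin changes beyond intake, and the others set each ob/ob group against untreated ob/ob or lean mice.

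Macrophages are the main leukocytes of the resting heart. They lie between the cardiomyocytes, take up debris and dying cells, and display fragments of it to other immune cells. One population is seeded before birth, renews itself in place and carries surface proteins such as LYVE1, TIMD4 and FOLR2. Another is replaced from blood monocytes and is recognised by the chemokine receptor CCR2. Survival of both depends on the receptor CSF1R, and much of their gene expression depends on the transcription factor PU.1, which Spi1 encodes.

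PU.1 binds purine-rich sites in the promoters of many macrophage genes. The promoters of the 5 members with the smallest p between leptin and calorie restriction, among those with an entry in the RefSeq promoter table (build GRCm38.p6), are shown because these members were high and low in the same groups of hearts. Each window runs from 250 bases before to 50 bases after the start of the gene, written 5′ to 3′ on the gene's strand. Capitals mark GAGGAA, the core of the PU.1 site, or its reverse complement.
Mpeg1, chr19:12460520-12460819, plus strand: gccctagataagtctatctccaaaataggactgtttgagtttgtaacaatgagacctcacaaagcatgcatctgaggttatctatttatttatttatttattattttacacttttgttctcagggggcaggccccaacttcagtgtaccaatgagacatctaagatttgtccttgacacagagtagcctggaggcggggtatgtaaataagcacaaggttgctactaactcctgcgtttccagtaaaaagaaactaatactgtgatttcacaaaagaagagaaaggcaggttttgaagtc
Laptm5, chr4:130913066-130913365, plus strand: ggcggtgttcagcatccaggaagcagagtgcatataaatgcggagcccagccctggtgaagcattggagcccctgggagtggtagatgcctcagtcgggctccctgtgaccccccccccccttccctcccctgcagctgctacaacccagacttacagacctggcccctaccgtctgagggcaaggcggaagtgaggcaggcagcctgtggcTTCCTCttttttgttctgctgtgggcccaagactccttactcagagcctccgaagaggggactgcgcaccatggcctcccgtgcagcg
Ptprc, chr1:138175256-138175555, minus strand: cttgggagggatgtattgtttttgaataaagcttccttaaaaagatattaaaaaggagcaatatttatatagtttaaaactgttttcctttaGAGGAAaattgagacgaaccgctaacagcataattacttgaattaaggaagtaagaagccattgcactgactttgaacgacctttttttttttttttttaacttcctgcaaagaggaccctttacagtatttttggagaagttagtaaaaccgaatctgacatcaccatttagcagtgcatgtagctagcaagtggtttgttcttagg
C1qb, chr4:136886151-136886450, minus strand: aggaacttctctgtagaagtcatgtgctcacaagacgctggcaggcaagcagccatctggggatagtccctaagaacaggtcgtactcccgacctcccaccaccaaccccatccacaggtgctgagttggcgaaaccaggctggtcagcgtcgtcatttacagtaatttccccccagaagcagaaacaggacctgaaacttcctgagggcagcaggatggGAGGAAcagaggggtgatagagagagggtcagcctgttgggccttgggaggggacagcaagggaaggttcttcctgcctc
Cd53, chr3:106790100-106790399, minus strand: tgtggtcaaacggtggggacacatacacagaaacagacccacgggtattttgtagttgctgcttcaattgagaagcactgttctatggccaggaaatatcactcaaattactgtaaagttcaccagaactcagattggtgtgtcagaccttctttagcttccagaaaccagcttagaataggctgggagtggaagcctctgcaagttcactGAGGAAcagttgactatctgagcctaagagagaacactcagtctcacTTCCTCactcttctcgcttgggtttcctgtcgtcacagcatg
The core began 38 bases before the start of Laptm5, 30 bases before that of C1qb and 158 bases before that of Ptprc. The Cd53 window held it at 2 places, 1 of them 39 bases before the start, and the Mpeg1 window held no match. In all, 33 members had 40 promoters in the table, and 22 of the 40 (55%) held GAGGAA on either strand. Among all 32851 promoters in the table the share was 28.3%. A longer form that contains it, GAGGAAGT, was in 5 of the 40 (12.5%, against 3.2% of all), and TGACTCA, the site of the AP-1 factors, in 4 of the 40 (10%, against 5.2%). The motifs were chosen after the members' values were known and among several spellings looked at, so these shares are descriptions with no test, and no binding was measured.

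Across the 4 groups of hearts, the calorie restricted ob/ob mice had the lowest myeloid signals, and the leptin treated ob/ob mice had signals near those of wild type. In leptin against calorie restricted hearts, 30 of the 42 tested members rose and 0 fell. The proportion of all 13359 tested genes called in that comparison was 13.6%, and 7.91% were called higher. In calorie restricted against wild type hearts, 29 members fell and 0 rose, against 11.3% of all genes called in either direction and 6.24% called lower. A gene was called where the adjusted p from limma's moderated test over all tested genes (Benjamini-Hochberg) was under 0.05. Both comparisons use the same calorie restricted arrays, so their errors are shared.

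The other 4 comparisons called few members. Calorie restricted against ad libitum hearts gave 9 members that fell, with 5.42% of all genes called. Ad libitum against wild type gave 1 member that fell (0.299% of all genes called), and leptin against ad libitum gave 1 that rose and 1 that fell (0.644%). Leptin against wild type gave 0 members called (0.00749% of all genes, 1 gene) by limma, with 3 members at an unadjusted p under 0.05. The median log2 difference of the members was 0.75 for leptin minus calorie restricted and -0.82 for calorie restricted minus wild type. It was -0.45 for calorie restricted minus ad libitum, -0.39 for ad libitum minus wild type, 0.30 for leptin minus ad libitum and 0.00 for leptin minus wild type. Medians over all tested genes lay between -0.03 and 0.00 in the same 6 comparisons.

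Calorie restriction gave the lowest group mean in 35 of the 42 members, a place it took in 28.8% of all tested genes. The highest mean was in the leptin group for 21 members, in wild type for 18, in ad libitum for 2 and in calorie restriction for 1, Vsig4. Averaged over the 42 members, the log2 signal relative to the wild type mean was -0.75 ± 0.19 (SD, n = 5) in calorie restricted hearts and -0.31 ± 0.11 (n = 4) in ad libitum hearts. In leptin hearts it was -0.01 ± 0.17 (n = 5), and the wild type hearts themselves spread with an SD of 0.26 (n = 4). The 5 calorie restricted hearts lay between -0.94 and -0.49, the 4 ad libitum hearts between -0.39 and -0.15 and the 5 leptin hearts between -0.21 and 0.21, so the calorie restricted range met none of the other ob/ob ranges. Because whole ventricle was profiled, fewer macrophages and less of each RNA per macrophage cannot be told apart.

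**Figure D1:**
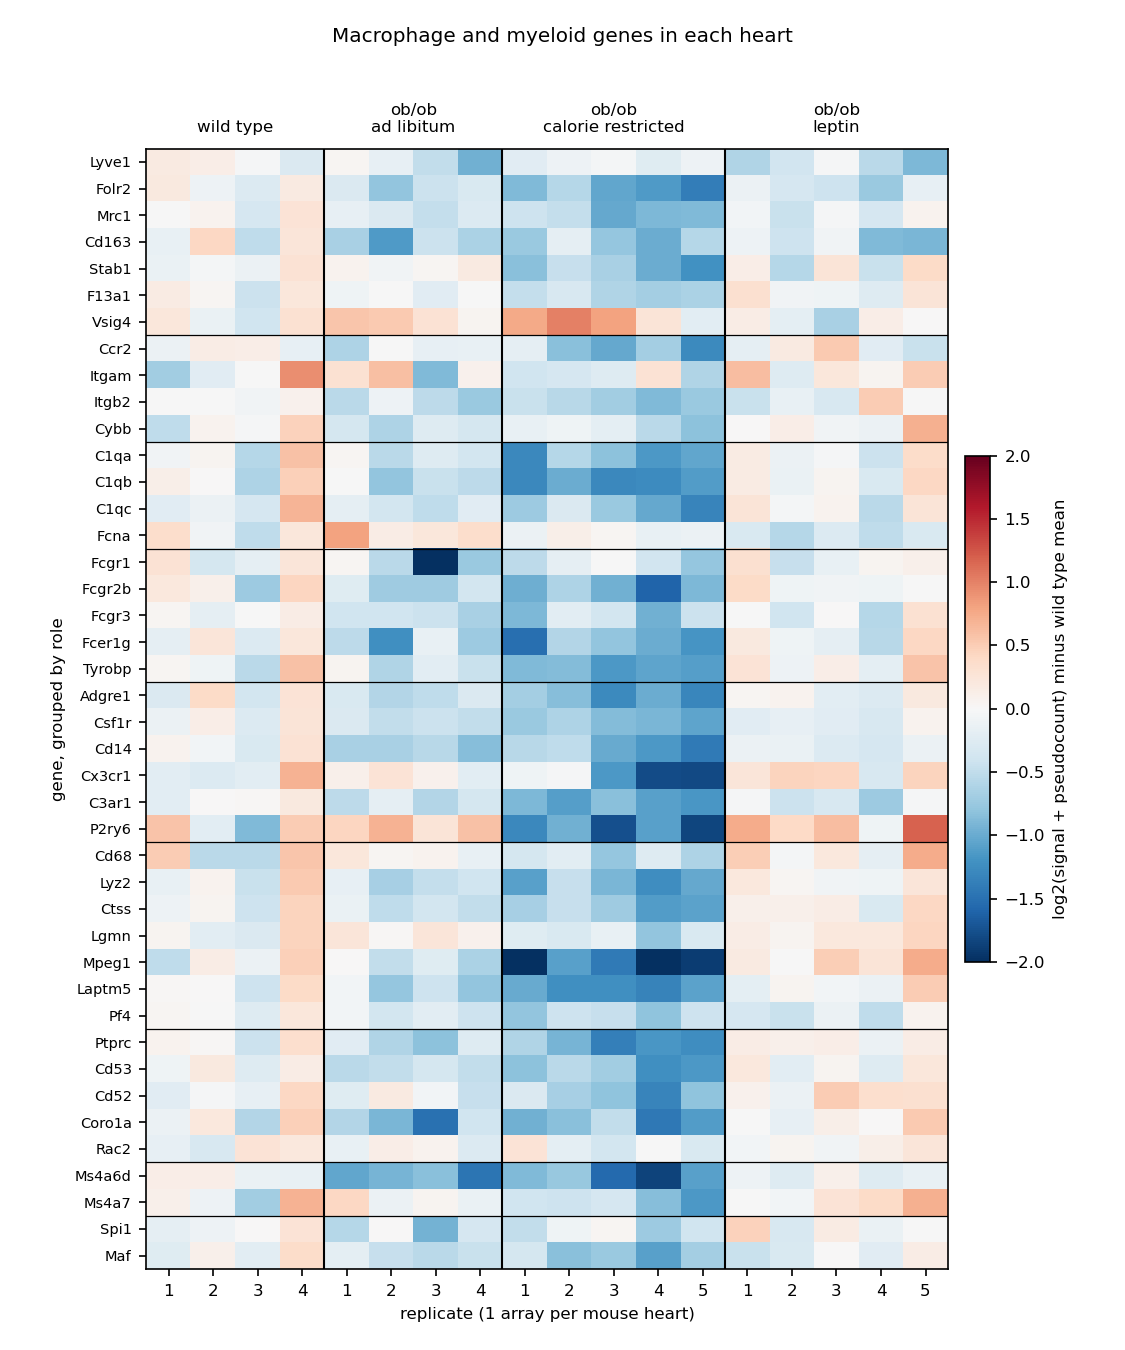
Log2(signal + 5.13) of the 42 tested members (rows, grouped by role) in each of the 18 hearts (columns), as the difference from the wild type mean of the gene; blue is lower and red is higher, and the colour scale ends at -2 and 2. The calorie restricted columns are blue in most rows. In them Lyve1, Fcna and Rac2 are pale (mean differences of -0.14, -0.05 and -0.12), and Vsig4 is mostly red (0.53). Wild type replicate 4 is red in most rows.

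The resident markers did not move as 1 block. Folr2, Mrc1, Stab1 and F13a1 rose in leptin against calorie restricted hearts and fell in calorie restricted against wild type hearts, 4 of the 7 resident markers tested, whereas Lyve1, Cd163 and Vsig4 were called in neither. Folr2, a folate receptor of tissue macrophages, gave signals of 54.2, 68.4, 47.7, 44.6 and 36.6 in the calorie restricted hearts, 95.5, 81.5, 76.9, 59.8 and 92.5 in the leptin hearts and 119, 96.6, 85.2 and 118 in wild type. In the ad libitum hearts it gave 83.6, 57.8, 75.6 and 82.6. Every calorie restricted heart was below every wild type heart for Folr2, while 1 leptin heart fell within the calorie restricted range. The log2 difference was 0.65 ± 0.16 (SE) for leptin minus calorie restricted (adjusted p = 0.0114) and Folr2 was 2.0-fold lower under calorie restriction than in wild type (adjusted p = 0.00114).

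Stab1, a scavenger receptor that clears modified proteins, showed the same low group. Its signals were 54.9, 72.7, 63.5, 48.6 and 41.3 under calorie restriction, 107, 96.7, 105 and 117 in ad libitum hearts, 112, 67.4, 123, 73.4 and 134 with leptin and 93.1, 98.8, 93.7 and 126 in wild type. The calorie restricted hearts were all below the ad libitum and the wild type hearts and overlapped with 1 of the leptin hearts. Stab1 differed by 0.78 ± 0.18 between leptin and calorie restriction (log2, adjusted p = 0.00801). It fell by 0.88 against ad libitum (SE 0.19, adjusted p = 0.0108) and by 0.83 against wild type (SE 0.19, adjusted p = 0.00904). It was the only resident marker called in calorie restricted against ad libitum hearts.

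Mrc1, the mannose receptor, and F13a1, the catalytic chain of coagulation factor XIII that macrophages also make, moved by similar amounts. Mrc1 ranged from 137 to 213 under calorie restriction, from 208 to 300 with leptin and from 225 to 346 in wild type, a log2 difference of 0.58 ± 0.14 for leptin minus calorie restricted (adjusted p = 0.0119). For F13a1 the ranges were 301 to 386, 406 to 609 and 357 to 568. The leptin and calorie restricted hearts did not overlap for F13a1 (log2 difference 0.58 ± 0.13, adjusted p = 0.00789). Its lower signal against wild type (-0.54 ± 0.14, adjusted p = 0.0191) was no longer called when wild type replicate 1, 2 or 4 was left out, with adjusted p-values between 0.0522 and 0.0667.

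Lyve1, the hyaluronan receptor that names the long-lived population and that lymphatic endothelium also carries, did not follow the others. Its signals were 316, 346, 362, 314 and 346 in calorie restricted hearts, 243, 285, 365, 256 and 197 in leptin hearts, 382, 332, 263 and 189 in ad libitum hearts and 422, 407, 368 and 304 in wild type. The calorie restricted hearts were the most alike, and 4 of the 5 leptin hearts lay below all of them. The log2 difference for leptin minus calorie restricted was -0.34, with a 95% interval from -0.71 to 0.02 (adjusted p = 0.213). Against wild type the calorie restricted hearts differed by -0.14, with an interval from -0.53 to 0.24. A second Lyve1 probe set gave 0.00 for leptin minus calorie restricted, -0.36 for calorie restricted minus wild type, and -0.20 for calorie restricted minus ad libitum, where the first gave 0.25. Of 5 other lymphatic endothelial markers tested, 1 rose and 1 fell in leptin against calorie restricted hearts, and the part of lymphatic vessels in the Lyve1 signal was not tested.

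Vsig4, a complement receptor of resident macrophages, was the 1 member with its highest mean under calorie restriction. The calorie restricted hearts gave 109, 130, 112, 75.4 and 53.3, the leptin hearts 69.2, 53.6, 37.6, 68.9 and 62.2, the wild type hearts 73.2, 56.3, 46.1 and 78 and the ad libitum hearts 93.3, 91.7, 77.1 and 65. The first 4 calorie restricted hearts were above every leptin heart, and replicate 5 was not. The log2 difference for leptin minus calorie restricted was -0.64 ± 0.22 (adjusted p = 0.063). Without calorie restricted replicate 5 it was -0.82 and passed the test (adjusted p = 0.0127), and the difference of calorie restricted minus wild type went from 0.53 (adjusted p = 0.167) to 0.71 (adjusted p = 0.0395).

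Cd163, the haemoglobin scavenger receptor, was highest in wild type, at 116, 173, 89.9 and 154. It ranged from 56.1 to 94.7 in ad libitum hearts, from 62.3 to 114 under calorie restriction and from 66.3 to 123 with leptin. All 3 ob/ob groups had a lower mean than wild type, and none of the 3 differences was called. That of calorie restricted minus wild type was -0.65 ± 0.23 (adjusted p = 0.078), and it passed the test without calorie restricted replicate 2 (-0.77, adjusted p = 0.048) or without wild type replicate 3 (-0.82, adjusted p = 0.0383). Timd4, the phosphatidylserine receptor of the same cells, gave between 2.39 and 20.9 over all 18 arrays, near the level at which the filter removes genes, and was not tested.

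Of the 4 markers of recruited cells, Ccr2 and Itgb2 rose in leptin against calorie restricted hearts and fell in calorie restricted against wild type hearts. Ccr2 gave 50.7, 30.4, 26, 34.3 and 21 under calorie restriction, 50.9, 66.7, 86.1, 49.3 and 41.3 with leptin, 53.2, 65.5, 64.6 and 51.3 in wild type and 36.4, 57.9, 51.4 and 52.4 in ad libitum hearts. Calorie restricted replicate 1 lay among the leptin hearts, and the remaining 4 were lower than all of them. The log2 difference was 0.77 ± 0.20 for leptin minus calorie restricted (adjusted p = 0.0158) and -0.80 ± 0.21 for calorie restricted minus wild type (adjusted p = 0.0212). The second of these calls was lost without calorie restricted replicate 3 or 5 or wild type replicate 2 or 3 (adjusted p between 0.0507 and 0.0651). A second Ccr2 probe set above the filter gave 1.36 and -0.88 in these comparisons.

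Itgb2, the common beta chain of the leukocyte integrins, ranged from 44.3 to 61.6 under calorie restriction, from 61.6 to 124 with leptin and from 81.4 to 92.1 in wild type. Its log2 differences were 0.58 ± 0.15 (leptin minus calorie restricted, adjusted p = 0.0186) and -0.67 ± 0.16 (calorie restricted minus wild type, adjusted p = 0.014). Leaving out calorie restricted replicates 2 and 3, which carried high atrial signal, ended the leptin call of both genes, with adjusted p = 0.0996 for Ccr2 and 0.0654 for Itgb2, and the call of Ccr2 against wild type (adjusted p = 0.11). With atrial signal as a covariate the leptin values were 0.0673 and 0.053, and in a fit of the compared groups alone 0.0568 and 0.0557.

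Itgam, the alpha chain that pairs with Itgb2 on monocytes and neutrophils, and Cybb, the catalytic subunit of the phagocyte NADPH oxidase, were called in none of the 6 comparisons. Itgam was dim, between 7.1 and 37.8 over all arrays. Its difference of calorie restricted minus wild type was -0.26 (95% interval -0.93 to 0.40) and turned to 0.04 without wild type replicate 4. Cybb ranged from 28 to 50.1 under calorie restriction and from 48.8 to 91.2 with leptin, a log2 difference of 0.49 ± 0.19 (adjusted p = 0.1), and its other probe sets gave 0.69 and 0.11.

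Set side by side, the resident and recruited markers showed like changes between calorie restriction and wild type. Averaged over its tested markers, the resident list was at -0.48 ± 0.22 (SD, n = 5) relative to the wild type mean in calorie restricted hearts, and the recruited list at -0.52 ± 0.21. In leptin hearts the resident list was at -0.23 ± 0.16 and the recruited list at 0.06 ± 0.08. The difference, resident minus recruited, was 0.04 ± 0.20 under calorie restriction, 0.05 ± 0.22 in ad libitum hearts and -0.29 ± 0.17 with leptin, while the wild type hearts ranged from -0.30 to 0.40. The leptin hearts ranged from -0.49 to -0.04, the calorie restricted hearts from -0.21 to 0.30 and the ad libitum hearts from -0.24 to 0.22. The leptin range thus reached below those of the other 3 groups and overlapped each of them. These means were not tested, since the lists were chosen with results of these data known.

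**Figure D2:**
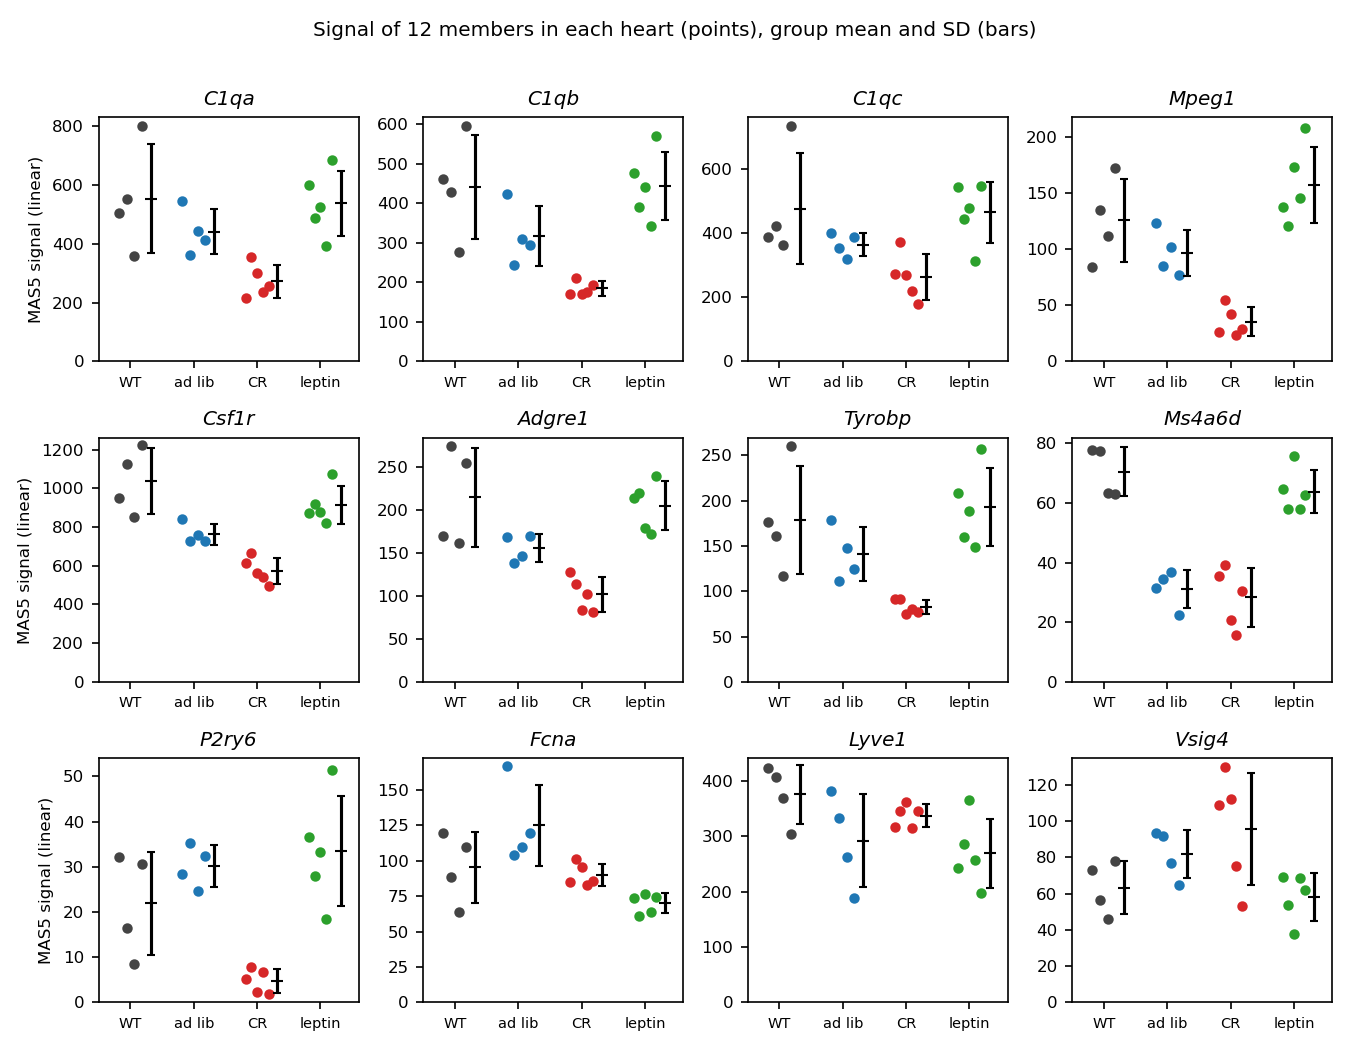
MAS5 signal (linear, vertical axes from 0) of 12 members in each heart: points are hearts in the order of their replicate number, and bars give the group mean and SD (wild type and ad libitum n = 4, calorie restricted and leptin n = 5). For C1qa, C1qb, Mpeg1, Csf1r, Adgre1, Tyrobp and P2ry6 the calorie restricted points lie below the points of all other groups; Ms4a6d is low in ad libitum hearts as well, and Lyve1, Vsig4 and Fcna follow other orders.

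The 3 chains of C1q, the recognition protein of the classical complement pathway that macrophages secrete, moved together. Their genes are direct neighbours in the genome, in the order C1qb, C1qc, C1qa. C1qa gave 215, 355, 299, 236 and 256 under calorie restriction, 598, 488, 525, 391 and 684 with leptin, 543, 362, 443 and 411 in ad libitum hearts and 503, 553, 357 and 799 in wild type. C1qb gave 171, 212, 171, 175 and 194, then 475, 389, 442, 342 and 569, then 423, 244, 309 and 295, and 462, 428, 276 and 595 in the same order of groups. For both chains every calorie restricted heart was below every heart of the other 3 groups.

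C1qb was 2.34-fold higher with leptin than under calorie restriction (log2 1.23 ± 0.18, adjusted p = 0.000383) and C1qa 1.95-fold (0.96 ± 0.20, adjusted p = 0.00412). Against wild type, calorie restricted hearts had 2.27-fold less C1qb (adjusted p = 0.00104) and 1.96-fold less C1qa (adjusted p = 0.00648). C1qb alone of the 3 was called against ad libitum, at -0.75 ± 0.20 (adjusted p = 0.0351), and that call was lost on leaving out any of 7 arrays, with an adjusted p of up to 0.113 without ad libitum replicate 1. C1qc overlapped between groups, at 179 to 372 under calorie restriction, 313 to 548 with leptin and 362 to 733 in wild type. It rose by 0.82 ± 0.21 with leptin (adjusted p = 0.0146). Its lower signal against wild type (-0.82 ± 0.22, adjusted p = 0.0235) was lost without wild type replicate 4 (-0.60, adjusted p = 0.0828) and without calorie restricted replicate 4 or 5.

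Fcna, a ficolin that starts the lectin pathway of complement, had a different order. Its signals were 167, 104, 110 and 120 in ad libitum hearts, 74.1, 61, 76.5, 64 and 74.6 with leptin, 84.9, 101, 96, 83.2 and 85.7 under calorie restriction and 120, 88.3, 63.8 and 110 in wild type. The leptin hearts were below all ad libitum and all calorie restricted hearts. Leptin against ad libitum was called (-0.78 ± 0.16, adjusted p = 0.0333). The call was lost on leaving out any of 8 arrays, among them every leptin array, with an adjusted p of 0.1 without leptin replicate 2.

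Among the Fc receptors, which bind the constant part of antibodies, Fcgr2b, the inhibitory receptor, rose with leptin and fell under calorie restriction, and Fcgr3 only fell against wild type. Fcgr2b ranged from 75.1 to 154 under calorie restriction and from 223 to 312 with leptin, with no overlap, a difference of 1.03 ± 0.20 (log2, adjusted p = 0.00331). Its other probe sets above the filter gave smaller differences of 0.45, 0.60 and 0.57. Fcgr3 was at 73.9 ± 17.6 (SD, n = 5) under calorie restriction and 110 ± 10.9 (n = 4) in wild type (log2 -0.57 ± 0.18, adjusted p = 0.045). This call was lost on leaving out any of 12 arrays, with adjusted p = 0.115 without wild type replicate 4. Fcgr1, the high-affinity receptor, was called nowhere with the probe set used, which gave 0.34 for leptin minus calorie restricted. Another Fcgr1 set above the filter gave 1.03. For calorie restricted minus ad libitum these sets had opposite signs, at 0.51 and -0.96. The Fc receptor genes are similar in sequence, and the Fcgr2b probe set is of a kind that can bind related transcripts, so their signals are less certain than those of single-copy genes.

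The adaptor proteins that pass on the signals of myeloid receptors changed more evenly. Tyrobp, which encodes DAP12, gave 91, 91.8, 74.8, 80.4 and 77 under calorie restriction, 209, 160, 189, 149 and 257 with leptin, 179, 111, 148 and 125 in ad libitum hearts and 177, 161, 117 and 260 in wild type. The calorie restricted hearts were below all others and varied little. Tyrobp rose 2.21-fold with leptin (log2 1.15 ± 0.18, adjusted p = 0.000689) and was 2.01-fold lower under calorie restriction than in wild type (adjusted p = 0.00316). Fcer1g, the common gamma chain of Fc receptors, ranged from 52.1 to 104 under calorie restriction and from 106 to 211 with leptin (log2 0.97 ± 0.22, adjusted p = 0.0074). Trem2, which signals through DAP12, gave between 2.42 and 29.8 over all arrays and was not tested.

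Genes that mark macrophages in general changed in the same direction. Csf1r, the receptor for the macrophage growth factors, gave 614, 667, 560, 542 and 493 in calorie restricted hearts and 873, 917, 875, 819 and 1076 in leptin hearts. In ad libitum hearts it gave 841, 726, 758 and 726, and in wild type 950, 1127, 850 and 1223. With the probe set used, the groups formed steps, with calorie restricted below ad libitum and both below wild type. No heart of one of these 3 groups lay within the range of another.

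Csf1r rose by 0.66 ± 0.11 with leptin against calorie restriction (log2, adjusted p = 0.000803) and was lower by 1.79-fold under calorie restriction than in wild type (adjusted p = 0.000296). The middle step was smaller. Calorie restricted minus ad libitum was -0.41 ± 0.12 (adjusted p = 0.0486), a call lost on leaving out any of 14 arrays (adjusted p = 0.133 without ad libitum replicate 1), and ad libitum minus wild type, at -0.43 ± 0.12, was not called (adjusted p = 0.167). The other Csf1r probe sets above the filter gave -0.20 and -0.06 for ad libitum minus wild type. For calorie restricted minus ad libitum they gave -0.40 and -0.31, and for leptin minus calorie restricted 0.52 and 0.43.

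Adgre1, which encodes the macrophage marker F4/80, gave 128, 114, 83.5, 102 and 81.4 under calorie restriction, 214, 220, 179, 172 and 239 with leptin, 169, 138, 146 and 170 in ad libitum hearts and 170, 274, 161 and 254 in wild type. The calorie restricted hearts were again below all others. The log2 differences were 0.98 ± 0.16 for leptin minus calorie restricted (adjusted p = 0.000702) and -1.02 ± 0.17 for calorie restricted minus wild type (adjusted p = 0.00104). C3ar1, the receptor for the complement fragment C3a, ranged from 37.5 to 48.2 under calorie restriction and from 52.7 to 104 in the other 3 groups together. It rose by 0.72 ± 0.13 with leptin (adjusted p = 0.00191) and fell by 1.02 against wild type (adjusted p = 0.000285).

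Cd14, a co-receptor for bacterial lipopolysaccharide, ranged from 64.8 to 125 under calorie restriction, from 97.8 to 122 in ad libitum hearts, from 142 to 167 with leptin and from 146 to 221 in wild type. The 2 groups without leptin thus lay below the 2 groups with it. The log2 difference was 0.73 ± 0.15 for leptin minus calorie restricted (adjusted p = 0.00439) and -0.93 ± 0.16 for calorie restricted minus wild type (adjusted p = 0.00153). Neither ad libitum minus wild type (-0.68 ± 0.17, adjusted p = 0.118) nor leptin minus ad libitum (0.48 ± 0.16, adjusted p = 0.193) was called.

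Signals of 2 receptors were close to the limit of what the arrays resolve. P2ry6, which senses the nucleotide UDP from damaged cells, gave 5.16, 7.74, 2.29, 6.7 and 1.89 under calorie restriction, 36.5, 28, 33.3, 18.5 and 51.5 with leptin, 28.5, 35.3, 24.7 and 32.4 in ad libitum hearts and 32.1, 16.5, 8.49 and 30.6 in wild type. All calorie restricted hearts were below all others, and 2 of them were below the pseudocount of 5.13 that was added before the logarithm. On that scale P2ry6 differed by 1.95 ± 0.27 between leptin and calorie restriction (adjusted p = 0.000221) and by -1.87 ± 0.29 between calorie restriction and ad libitum (adjusted p = 0.00126). Cx3cr1, the fractalkine receptor, ranged from 2.34 to 20.5 under calorie restriction and from 15.8 to 30.4 with leptin. Its difference of 1.22 ± 0.32 (adjusted p = 0.0189) was not called in a fit of the compared groups alone (adjusted p = 0.0621).

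On the log2(signal + 5.13) scale, the largest difference of a member between leptin and calorie restriction was that of Mpeg1, a pore-forming protein of the phagosome that damages ingested bacteria. It gave 26.1, 54.4, 42.5, 23.9 and 29 under calorie restriction, 138, 121, 173, 146 and 208 with leptin, 123, 84.8, 102 and 77.2 in ad libitum hearts and 84.4, 135, 112 and 172 in wild type. No calorie restricted heart reached the lowest heart of any other group. Mpeg1 was 4.11-fold higher with leptin than under calorie restriction (log2 2.04 ± 0.22, adjusted p = 2.27e-05). It was 3.28-fold lower under calorie restriction than in wild type (adjusted p = 0.000263) and 2.59-fold lower than in ad libitum hearts (adjusted p = 0.00244). Of the 9 members called against ad libitum, Mpeg1, P2ry6 and Stab1 were the 3 whose call against ad libitum held in all 27 other settings and subsets of arrays that were tried. Tyrobp (-0.71), Adgre1 (-0.60), C3ar1 (-0.61) and Laptm5 (-0.67) were called there too, and lost the call on leaving out 1 of 12, 11, 1 and 6 arrays, with adjusted p-values up to 0.134, 0.125, 0.053 and 0.116.

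Other secreted and lysosomal members changed less than Mpeg1. Lyz2, the lysozyme of macrophages, gave 488, 757, 549, 438 and 511 under calorie restriction and 1203, 1067, 996, 982 and 1240 with leptin (log2 1.01 ± 0.17, adjusted p = 0.00087). It shares much of its sequence with Lyz1, which the arrays may not separate. Ctss, the cathepsin that trims the MHC class II chaperone, ranged from 180 to 286 under calorie restriction and from 322 to 530 with leptin (0.90 ± 0.17, adjusted p = 0.00202). Laptm5, a lysosomal membrane protein of leukocytes, ranged from 45.7 to 58.5 and from 107 to 177 (1.21 ± 0.17, adjusted p = 0.000204). Its other probe sets above the filter gave 0.76, 0.55 and 0.36. For calorie restricted minus ad libitum they gave -0.47, -0.75 and 0.56, against -0.67 for the set used. All of the calorie restricted hearts were below all of the leptin and wild type hearts for these 3 genes.

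Lgmn, an asparagine-cleaving protease, rose with leptin (0.56 ± 0.14, adjusted p = 0.0117) and was not called against wild type. Pf4, a chemokine of platelets that tissue macrophages also make, showed the converse. It fell under calorie restriction against wild type (-0.57 ± 0.14, adjusted p = 0.0122) and was not called against leptin (0.31 ± 0.13, adjusted p = 0.137). Of 6 tested platelet markers, 1 fell in the first of these comparisons, Ppbp, at -1.81 ± 0.50 (adjusted p = 0.0255), and the part of platelets in the Pf4 signal was not tested. Cd68, a lysosomal glycoprotein widely used to stain macrophages, gave 52.9, 58.7, 37.9, 56.4 and 43.1 under calorie restriction and 98.4, 66.7, 80.7, 60.3 and 119 with leptin. These 2 groups did not overlap, but the difference of 0.69 ± 0.23 missed the threshold (adjusted p = 0.0524), and 2 of the 4 wild type hearts, at 45.8 and 46, were as low as the calorie restricted hearts.

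Of 5 tested genes that leukocytes share, 4 rose with leptin against calorie restriction and fell under calorie restriction against wild type. Ptprc, which encodes CD45, gave 55.6, 43.4, 30.7, 35.9 and 33.9 under calorie restriction, 97.1, 94.3, 96, 80.2 and 97.6 with leptin, 73.8, 56, 47.4 and 72.3 in ad libitum hearts and 91.7, 89, 63.6 and 111 in wild type. The leptin hearts were nearly alike and stood above all calorie restricted and all ad libitum hearts. Ptprc rose 2.21-fold against calorie restriction (log2 1.15 ± 0.16, adjusted p = 0.000212), and its difference from ad libitum, 0.56 ± 0.17, was not called (adjusted p = 0.149). Cd53, a tetraspanin, rose by 0.89 ± 0.14 (adjusted p = 0.000582), Cd52, a small surface glycoprotein, by 1.00 ± 0.18 (adjusted p = 0.00169) and Coro1a, an actin regulator of leukocytes, by 1.06 ± 0.23 (adjusted p = 0.00552).

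The same 4 genes fell under calorie restriction against wild type, by log2 differences between -0.77 and -1.06. With the mean of all probe sets in place of the brightest, Cd53 was called in neither comparison (adjusted p = 0.133 and 0.329) and Ptprc not against wild type (adjusted p = 0.0515). The Cd52 call against wild type was lost without wild type replicate 4 (adjusted p = 0.0579), and the Coro1a call without wild type replicate 2 or 4 (adjusted p up to 0.06). Coro1a in ad libitum hearts, at 38.1, 29.2, 18.1 and 44.3, was close to its calorie restricted level of 29 ± 8.27 (SD, n = 5), and below every leptin heart (53.2 to 87.9). Leptin minus ad libitum was 0.94 ± 0.24 (adjusted p = 0.0945). Rac2, a small GTPase of the oxidase and of migration, ranged from 40.2 to 66.1 over all 18 arrays and was called nowhere. Hcls1 (1.88 to 23.7) and Aif1 (2.07 to 32) were too dim to test.

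Ms4a6d, a membrane protein of the MS4A family found on macrophages, had separate levels in hearts with and without leptin. The wild type hearts gave 77.7, 77.4, 63.5 and 63.1 and the leptin hearts 64.7, 58.1, 75.7, 57.9 and 62.8. The ad libitum hearts gave 31.6, 34.4, 36.9 and 22.3 and the calorie restricted hearts 35.5, 39.3, 20.6, 15.8 and 30.4. No heart lay between 39.3 and 57.9. Of the other members, Cd14 and Cd53 also had no overlap between hearts with and without leptin. The share of all tested genes that split in this way was not determined, so no pattern of the members is read from it.

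Ms4a6d was the 1 member called in ad libitum against wild type (-1.06 ± 0.20, adjusted p = 0.0367) and, with Fcna, 1 of the 2 called in leptin against ad libitum (0.93 ± 0.19, adjusted p = 0.0323). These calls were lost on leaving out any of 8 arrays each, with adjusted p-values up to 0.119 without wild type replicate 2 and 0.0935 without ad libitum replicate 4. It also differed between leptin and calorie restriction (1.09 ± 0.18, adjusted p = 0.000736), and calorie restricted minus ad libitum was -0.16, with a 95% interval from -0.56 to 0.24. A second Ms4a6d probe set gave -1.16 for ad libitum minus wild type, 1.04 for leptin minus ad libitum and 1.60 for leptin minus calorie restricted. Ms4a7, a relative expressed by tissue macrophages, rose in leptin against calorie restricted hearts (0.89 ± 0.23, adjusted p = 0.015) and was called in no other comparison.

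Of the 2 transcription factor genes, Maf was called and Spi1 was not. Spi1, the gene of PU.1, gave 31.8, 43.9, 48, 26.3 and 34.4 under calorie restriction, 66.6, 36.5, 53.2, 42.5 and 46.8 with leptin, 29.7, 46.9, 21.8 and 36 in ad libitum hearts and 40.8, 43.1, 47.2 and 57.7 in wild type. All groups overlapped, and the difference of leptin minus calorie restricted was 0.37, with a 95% interval from -0.02 to 0.76 (adjusted p = 0.216). Maf, which encodes a factor of resident macrophages and is also active elsewhere, rose by 0.57 ± 0.15 (adjusted p = 0.0158) and was 1.67-fold lower under calorie restriction than in wild type (adjusted p = 0.00568). With the mean of all its probe sets in place of the brightest, Maf was called in neither (adjusted p = 0.739 and 0.19).

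**Figure D3:**
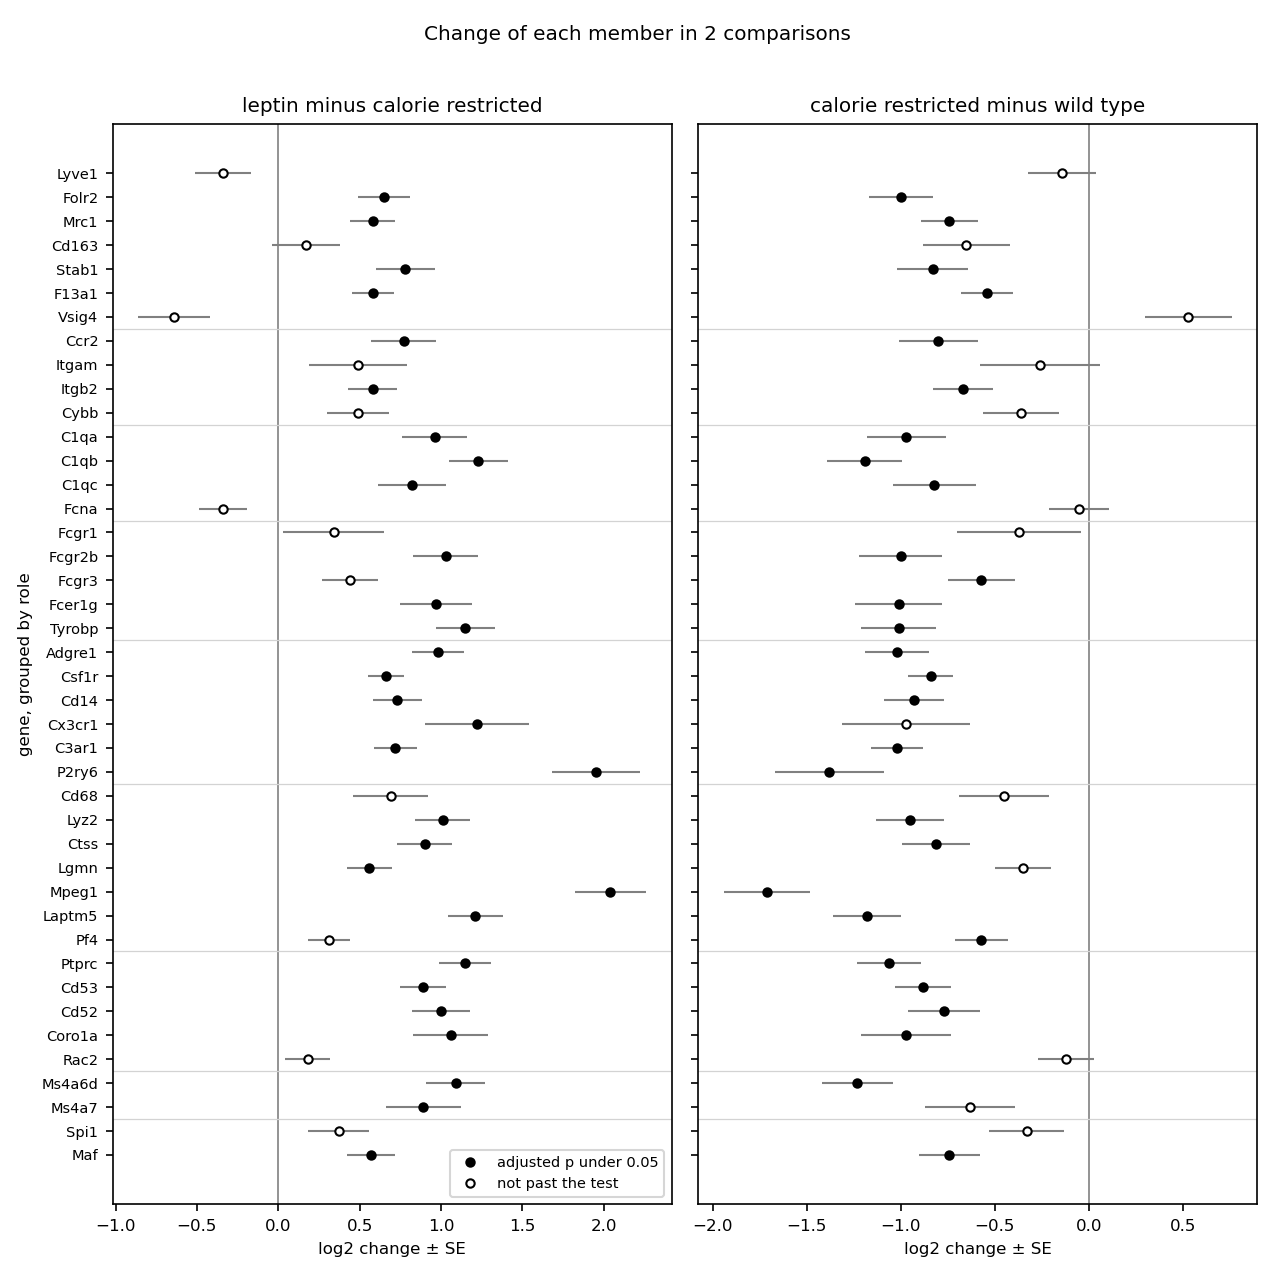
Log2 difference with its SE (horizontal axes) of the 42 tested members for leptin minus calorie restricted (left) and calorie restricted minus wild type (right); filled points passed the test (30 and 29 members) and open points did not. Mpeg1 and P2ry6 lie farthest from 0 in both panels, and Lyve1, Vsig4 and Fcna are left of 0 in the left panel.

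Ranges of single hearts gave a similar account of the whole group. All leptin hearts were above all calorie restricted hearts in 24 of the 42 members and below them in 1, Fcna, where 6.3% and 4.57% of all tested genes did so. All calorie restricted hearts were below all wild type hearts in 25 members (6.89% of all genes) and below all ad libitum hearts in 17 (4.87%). All leptin hearts were above all ad libitum hearts in 9 members (2.81%), and all ad libitum hearts below all wild type hearts in 7 (3.41%). Leptin and wild type hearts overlapped in every tested member.

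For leptin minus wild type the members gave differences between -0.49 (Lyve1) and 0.57 (P2ry6), with 21 above 0 and 21 below. The 95% intervals were wide enough to hold sizeable changes: for C1qb from -0.37 to 0.45, for Csf1r from -0.42 to 0.07 and for Mpeg1 from -0.16 to 0.82. The 3 members at an unadjusted p under 0.05, Lyve1, Fcna and C3ar1, all had lower means with leptin. The absence of calls therefore does not show that the 2 groups had equal levels.

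Within a group the members rose and fell with the animal. In wild type, replicate 4 gave the highest signal of its group for 30 of the 42 members (25.4% of all genes) and replicate 3 the lowest for 26 (22.7%). Among leptin hearts, replicate 5 was highest for 26 members and replicate 4 lowest for 22. Calorie restricted replicate 2 was highest for 25, while replicates 4 and 5 were lowest for 19 and 15. The members are thus not independent readings, and a count of members called repeats, in part, the same difference between hearts.

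Other genes of the same systems were read from textbook lists. Of all tested genes, 7.91% were called higher and 5.73% lower in leptin against calorie restricted hearts. In calorie restricted against wild type hearts 5.02% were called higher and 6.24% lower. The lists are small, and none was tested against these shares. Of 16 tested growth factors, recruiting ligands and clearance receptors of myeloid cells, 6 rose and 0 fell in leptin against calorie restricted hearts, with a list median of 0.36. They included Csf1, the main ligand of CSF1R (0.63 ± 0.11, adjusted p = 0.00126), Csf2ra, a chain of the GM-CSF receptor (0.84 ± 0.11, adjusted p = 0.000204), Cxcl12, a chemokine that holds leukocytes in tissue (0.55 ± 0.09, adjusted p = 0.00111), and Ccl8, a monocyte chemokine (1.28 ± 0.32, adjusted p = 0.0131). In calorie restricted against wild type hearts 5 of the 16 fell and 0 rose, Csf1 among them at -0.65 ± 0.12 (adjusted p = 0.00192).

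Among 9 tested complement genes other than C1q, 5 rose and 0 fell with leptin against calorie restriction, and 6 fell and 0 rose under calorie restriction against wild type. C1s1, a protease of the C1 complex, differed by 1.04 ± 0.19 in the first comparison (adjusted p = 0.00159), Serping1, the inhibitor of that protease, by 0.59 ± 0.12 (adjusted p = 0.00346), Cfp, the stabiliser properdin, by 1.77 ± 0.38 (adjusted p = 0.00576) and C5ar1, the C5a receptor, by 0.74 ± 0.18 (adjusted p = 0.0121). Of 17 lysosomal genes, 6 rose and 0 fell with leptin, led by Ctsc (0.70 ± 0.11, adjusted p = 0.000367) and Ctsz (0.70 ± 0.14, adjusted p = 0.00296), both cathepsins. Against wild type the lysosomal genes went both ways under calorie restriction, with 3 lower and 2 higher. Psap, the saposin precursor, was 0.32 ± 0.09 higher (adjusted p = 0.0313) and Gpnmb, a glycoprotein of lipid-laden macrophages, 0.78 ± 0.22 higher (adjusted p = 0.0295).

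The MHC class II genes, which macrophages and dendritic cells use to present antigen, also differed between these groups. With leptin against calorie restriction 5 of 6 rose (median 1.84, 7.91% of all genes called higher). Under calorie restriction against wild type 5 of 6 fell (median -1.74, 6.24% of all genes called lower). The remaining gene, Ciita, their transcriptional activator, differed by 0.04 and -0.15. Of 9 tested genes of macrophage activation, 2 rose and 0 fell in leptin against calorie restricted hearts. The list median was 0.03, with 6 genes above 0 and 3 below. The 2 were Retnla, a marker of the alternative state (1.64 ± 0.32, adjusted p = 0.00305), and Tlr4, the lipopolysaccharide receptor (0.68 ± 0.20, adjusted p = 0.0309). In leptin against calorie restricted hearts limma called 0 of 7 kinases and adaptors downstream of the ITAM chains (1 at an unadjusted p under 0.05), 0 of 7 other myeloid transcription factors (3) and 0 of 4 partners of the NADPH oxidase (1). Like the other lists of these paragraphs, they are too small to be read against the 13.6% of all genes called.

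The arrays also show what other cells did in the same hearts. Of 10 fibroblast markers, 6 rose with leptin against calorie restriction (7.91% of all genes called higher). Under calorie restriction 6 fell against wild type and 6 against ad libitum (6.24% and 2.96% of all genes called lower). Against wild type Col1a1, Col1a2, Dpt, Lum, Mfap5 and Postn fell, by log2 differences between -1.74 and -0.82. Pdgfra (-0.15), Tcf21 (-0.20), Dcn (0.13) and Gsn (0.13) were not called there. The mean level of the 10 markers relative to wild type was -0.69 ± 0.23 (SD, n = 5) under calorie restriction, -0.09 ± 0.04 in ad libitum hearts and 0.03 ± 0.13 with leptin. Summed over the 10 markers, signals ranged from 8079 to 10400 under calorie restriction, 9762 to 10253 in ad libitum hearts, 9984 to 11807 with leptin and 8847 to 12598 in wild type. Of 10 endothelial markers 4 rose with leptin against calorie restriction, and 2 fell under calorie restriction against ad libitum. Limma called 0 of them in calorie restricted against wild type hearts (4 at an unadjusted p under 0.05), with sums of 3005 to 3564, 3608 to 4436, 3939 to 4479 and 3181 to 4177 in the same order of groups. What part the share of non-muscle cells in each sample had in the myeloid differences was not tested.

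Ventricular muscle markers were strong in every heart, and limma called 0 of 12 in each of the 3 comparisons that involve calorie restriction. In calorie restricted against wild type hearts 9 of the 12 had an unadjusted p under 0.05, with a median difference of 0.26, and 0 had one in the comparisons with leptin and ad libitum hearts. Their mean level was 0.26 ± 0.15 (SD) under calorie restriction, 0.18 ± 0.11 in ad libitum and 0.21 ± 0.19 in leptin hearts, relative to wild type. Atrial markers were uneven. Their summed signal ran from 1724 to 16369 under calorie restriction and from 904 to 3560 in the other groups, with calorie restricted replicates 2 and 3 the highest of all hearts. Without those 2 hearts, 28 members rose with leptin against calorie restriction, 27 fell against wild type and 3 fell against ad libitum. With atrial signal as a covariate these counts were 28, 30 and 3.

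Markers of other leukocytes were read in the same way. Their lists are too small to be read against the share of all genes called, 13.6% in leptin against calorie restricted hearts. In leptin against calorie restricted hearts limma called 0 of 3 tested T and NK cell markers, 0 of 6 B cell, 0 of 6 neutrophil, 0 of 6 dendritic cell and 0 of 5 mast cell markers, with 0, 2, 0, 0 and 0 at an unadjusted p under 0.05. Summed signals of the 9 T and NK cell markers on the arrays were 147 to 181 under calorie restriction and 141 to 205 with leptin, and those of the 8 neutrophil markers 206 to 253 and 176 to 331. Over all hearts the T cell marker Cd3d lay between 1.01 and 3.52 and Cd8a between 49.9 and 103. Of the neutrophil markers, Camp lay between 1.02 and 2.92 and Ngp between 39.6 and 97.9. Ighm, the heavy chain of IgM, was the B cell marker that fell under calorie restriction, by 0.56 against wild type (SE 0.16, adjusted p = 0.0302) and by 0.70 against ad libitum (SE 0.16, adjusted p = 0.0158). The sums are of MAS5 signals and give no cell numbers.

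**Figure D4:**
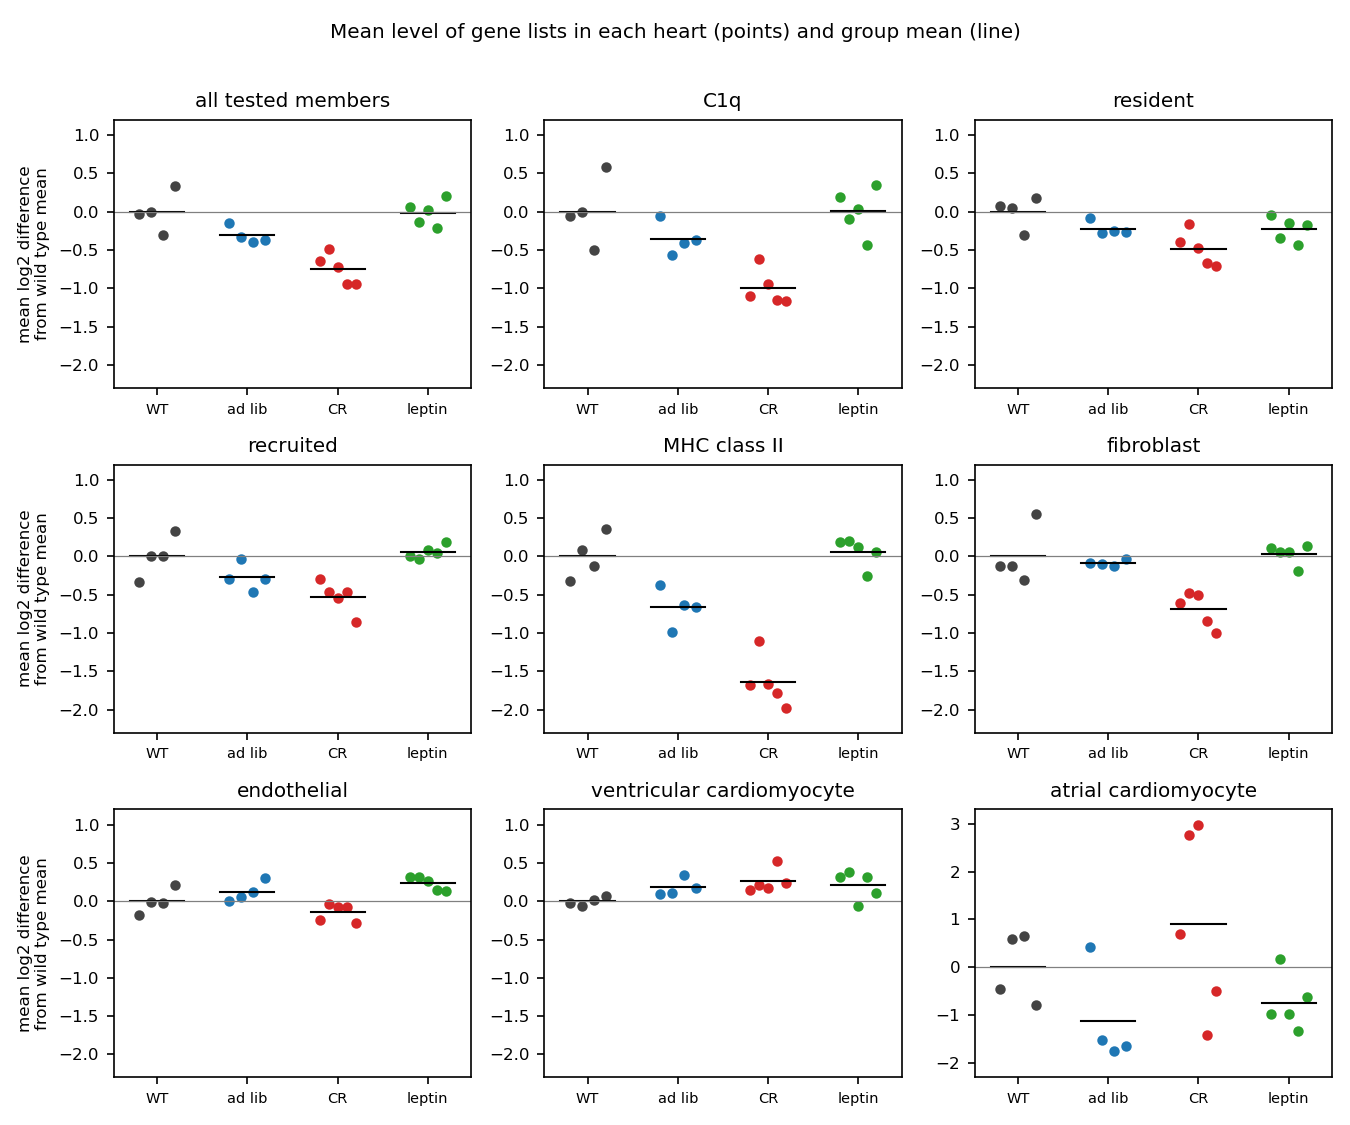
Mean log2 difference from the wild type mean over the tested genes of 9 lists (vertical axes; the atrial panel has a wider one) in each heart (points, in the order of replicate number), with the group mean as a line. The calorie restricted points are lowest for all tested members, C1q, MHC class II and fibroblast markers, ventricular muscle markers lie between -0.06 and 0.53 in all hearts, and 2 calorie restricted hearts are high for atrial markers.

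Most members were read by a single probe set, and 18 had more than 1, for 82 sets in all. Of the 30 members called in leptin against calorie restricted hearts, 9 had 18 further sets above the filter, of which 15 gave a positive difference and 3, all of Maf, a negative one. Such agreement varied in size: the 3 C1qb sets gave 1.23, 1.01 and 0.56. Probe sets of different genes bind with different strength, so the signals above order hearts within a gene and not genes against each other. The replicates are separate mice by their labels, and the p-values set each group difference against the spread of these 18 hearts within their groups.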

How the data were processed

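Ventricular RNA of 18 mice was hybridised to Affymetrix arrays, 1 per mouse. The deposited table holds linear signal intensities per probe set, made by the authors with MAS5 (per the submitters' processing notes), whose version is not given in the sources used here. The mean without the lowest and highest 2% of sets was 100.001 on every array, so total signal cannot be compared between hearts. Array medians were 22.3 to 31.8, no 2 arrays were identical, and their number limits the precision.

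Of 45101 probe sets, 64 were controls, and 34945 had 1 gene symbol in the platform annotation (932 several, 9160 not listed). Entrez identifiers of 34741 sets were found in RefSeq (GRCm38.p6), which changed 0 symbols. Each of 18193 genes was read from its brightest set as log2(signal + 5.13), the pseudocount being the 20th percentile of all signals. Changes on this scale understate those of dim genes. Genes with a mean under the 40th percentile (4.36) were left out, leaving 13359. The 4 groups entered a single limma 3.58.1 model (R 4.3.3) over the 18 arrays, with 6 contrasts, empirical Bayes moderation, two-sided tests and Benjamini-Hochberg adjustment over all tested genes. All adjusted p-values come from this fit or from its 27 alternatives: other pseudocounts, filter, normalization, probe set rule, samples and covariates, and each array left out. The procedure was also run on simulated arrays whose genes varied independently of each other. The members rose and fell together within groups, so that run does not bear on counts of members.

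Errors of signals and list levels are SDs between hearts, and errors of log2 differences are SEs of the fit. The comparisons share arrays, so their errors are correlated. The members and lists were chosen with earlier results of these data known, and no test was made of a list. By rule, values were given for every member called in any comparison, the C1q chains, the resident and recruited markers and Adgre1, Csf1r, Cd68, Ptprc and Spi1, those with the smallest p of each role first, and for up to 4 genes of each other list.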

Additional observations from a re-analysis of the deposited data

Results flagged for a closer look

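In 7 of 168 combinations of a member and a group of 4 or 5 hearts (4.17%), 1 heart stood apart from the rest of its group by Dixon's criterion, which chance meets in about 1 of 20 groups. In wild type, replicate 4 was high for C1qc (733, the next heart 421) and for Cx3cr1 (37.1, the next 17.4). Among leptin hearts, replicate 5 was high for Cybb (91.2, the next 59.1), replicate 1 was high for Fcgr2b (312, the next 236) and replicate 4 was low for Ptprc (80.2, the next 94.3). Ad libitum replicate 4 was low for Fcgr3 (68, the next 80.1), and calorie restricted replicate 4 was low for Lgmn (89.9, the next 128).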

How the results depend on the processing

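The members called in leptin against calorie restricted hearts numbered 28 to 31 under the 9 other settings and 30 to 32 with 1 array left out, against 30. All 30 stayed called whichever array was left out, and 25 in every alternative. In calorie restricted against wild type hearts 23 of 29 stayed called whichever array was left out and 20 in every alternative, and the median change of -0.82 became -0.61 with the mean of all probe sets of a gene. In calorie restricted against ad libitum hearts the 9 calls became 4 with no filter on low signal, 3 with the mean of all probe sets, 3 with atrial signal as a covariate and 3 without calorie restricted replicates 2 and 3, and 4 to 13 with 1 array left out. In leptin against ad libitum the 2 calls became 0 with no filter and in a fit of the groups compared alone, 1 with the mean of all probe sets and 1 without calorie restricted replicates 2 and 3, and 0 to 2 with 1 array left out. In ad libitum against wild type the 1 call became 0 with no filter, with the groups compared alone and with the atrial covariate, and 0 to 1 with 1 array left out. Itgam reversed to 0.04 in calorie restricted minus wild type without wild type replicate 4 (range -0.49 to 0.04 with 1 array left out). For these changes the cause was not tested. Single-gene values were followed under the alternatives for the called members and for a few chosen members that were not called. Of these values, 2180 kept their direction and side of the threshold, 163 lost the call, 5 gained it and 1 reversed. Calls gained by members that were not followed are outside these counts, so losses and gains cannot be compared.

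Replicate numbers did not pair the hearts: deviations of the 25 same-numbered pairs correlated between -0.182 and 0.345, with a median of -0.025 (0.011 for other pairs). With a replicate block, leptin against calorie restricted hearts kept 30 calls in number and calorie restricted against wild type gave 28, calorie restricted against ad libitum 5, leptin against ad libitum 0 and ad libitum against wild type 1. Changes of low signals, such as those of P2ry6, Cx3cr1 and Itgam, are the least well measured, since they lie near the pseudocount.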
